A study of Mus musculus with 9 samples.

Results

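The genes described here are the variable and constant genes of the T cell receptor, measured by RNA sequencing in bone marrow of young and aged mice. They are all rows of the deposited gene table whose symbol begins with Tra, Trb, Trd or Trg followed by v or c. This gave 186 of 56980 genes, 178 of them variable segments and 8 of them constant genes. The mice were wild type and C57BL/6, stated to be female, with no agent given: 4 libraries came from young mice (3 months) and 5 from aged mice (20 months). The tissue is labelled bone marrow, while RNA was extracted from homogenised trabecular bone, and markers of neutrophils and monocytes, of red cell precursors and of bone cells were all present. Libraries are numbered as replicates of young or aged mice. Beyond that wording no label ties each number to a separate animal, so the p-values measure the spread between these libraries.

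Each library held 19804883 to 23548594 estimated counts, and the members together took 16.3 to 18.8 CPM (each count relative to the library total, here with no further scaling) in young and 23.0 to 44.6 CPM in aged libraries. All CPM values below are scaled by TMM, which adjusts the totals between libraries. Libraries differed in ways that the ages do not give. Ribosomal protein genes took 5.99% to 6.98% of counts in young 4, aged 3 and aged 4 and 3.06% to 3.31% in the other 6 libraries. These are called the 3-library set and the 6-library set below, and results are given with and without the 3-library set. Xist, the transcript of the inactive X chromosome, had 7909 to 21724 counts in aged 1 to aged 4 and 1 to 9 in the others. The Y-linked Ddx3y and Eif2s3y had 0 counts in aged 1 to aged 4 and 888 to 1912 in young 1 to young 4 and aged 5. These 5 libraries go against the stated female sex, and without them no young library is left. Age and these transcripts cannot be told apart except through aged 5. Its value is therefore given beside the alpha, beta and gamma constant results and some other T cell genes.

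T cells recognise antigen with a receptor made of an alpha and a beta chain or, in a smaller lineage, a gamma and a delta chain. Each chain gene is assembled in the developing cell by joining 1 variable segment to a joining segment (and a diversity segment in beta and delta), and is spliced to a constant gene, so constant transcripts are shared by all cells of a lineage while each variable segment marks only those cells that chose it. The chains have no signalling tail of their own and reach the surface with the CD3 chains and the zeta chain (Cd247). In adult mice the rearrangement takes place mostly in the thymus, and the marrow holds mature T cells, many of them memory cells. The alpha and delta genes lie together on chromosome 14, with the delta genes inside the alpha locus, the beta genes lie on chromosome 6 and the gamma genes on chromosome 13 (GENCODE M21 annotation).

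The constant genes carried most of the signal, and 2 sets of them are near copies of each other, which bears on how their counts can be read. The coding parts of Trbc1 and Trbc2, the alternative beta constant genes, are printed from GENCODE M21 transcripts (GRCm38) from base 219 to base 518, with the bases that differ between them in capitals.
Trbc1: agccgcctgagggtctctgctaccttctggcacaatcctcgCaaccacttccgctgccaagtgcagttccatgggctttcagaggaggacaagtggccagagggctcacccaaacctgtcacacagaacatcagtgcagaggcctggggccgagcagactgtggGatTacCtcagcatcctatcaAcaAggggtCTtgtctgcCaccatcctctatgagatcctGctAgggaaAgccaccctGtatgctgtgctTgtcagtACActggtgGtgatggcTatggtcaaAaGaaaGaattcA
Trbc2: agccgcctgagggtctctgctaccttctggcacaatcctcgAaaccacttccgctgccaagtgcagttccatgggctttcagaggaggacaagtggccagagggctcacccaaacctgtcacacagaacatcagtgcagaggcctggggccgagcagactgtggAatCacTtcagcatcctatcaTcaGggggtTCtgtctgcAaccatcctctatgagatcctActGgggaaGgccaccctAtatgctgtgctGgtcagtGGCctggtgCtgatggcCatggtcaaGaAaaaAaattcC
They differ at 23 of 518 bases (95.6% identity), all of them in the stretch shown and 1 of them in the first exon, and the longest identical stretch is the first 259 bases. A read from most of the first exon fits both genes equally, so the split of counts between Trbc1 and Trbc2 is uncertain while their sum is not. Trgc1, Trgc2 and Trgc3 are near copies of each other too, while Trgc4 is more distant, but the gamma sequences were not compared here. The deposited counts of these 3 genes were whole numbers in every library, unlike those of Trbc1 and Trbc2 (51.17 and 73.83 in young 1). How far reads fit more than 1 of the 3 was not tested. Trac, the single alpha constant gene, has no such copy among the members, and its first exon is shown since it was the only tested constant gene whose young and aged CPM did not overlap.
Trac: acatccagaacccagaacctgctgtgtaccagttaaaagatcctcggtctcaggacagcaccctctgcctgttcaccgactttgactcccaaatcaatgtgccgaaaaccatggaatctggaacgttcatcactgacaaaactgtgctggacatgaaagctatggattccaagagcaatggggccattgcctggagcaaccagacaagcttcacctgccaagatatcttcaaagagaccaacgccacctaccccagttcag

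Most counts came from the constant genes. Of the 186 members, 116 had a count in any library and 70 had none. Among the 178 variable segments, 108 had a count. After rounding 104 had one, 31 of them in 1 library only and 22 in 5 or more. The highest sum over the 9 libraries was 74 counts, for Trgv2. Counts were seen for 79 of 130 alpha segments, 19 of 35 beta, 6 of 7 gamma and 4 of 6 delta segments, and 34 variable rows are pseudogenes, of which 1 had a count. The 84 joining and diversity rows of the table, none longer than 72 bases, were all at 0. Only 7 members passed the filter on low counts, all of them constant genes (Trac, Trbc1, Trbc2, Trdc, Trgc1, Trgc2 and Trgc4). Trgc3 had 3 counts, all in aged 2. Counts were therefore summed by chain and class, giving 8 sums, and each sum stood as 1 row in the fit of the whole table.

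**Figure D1:**
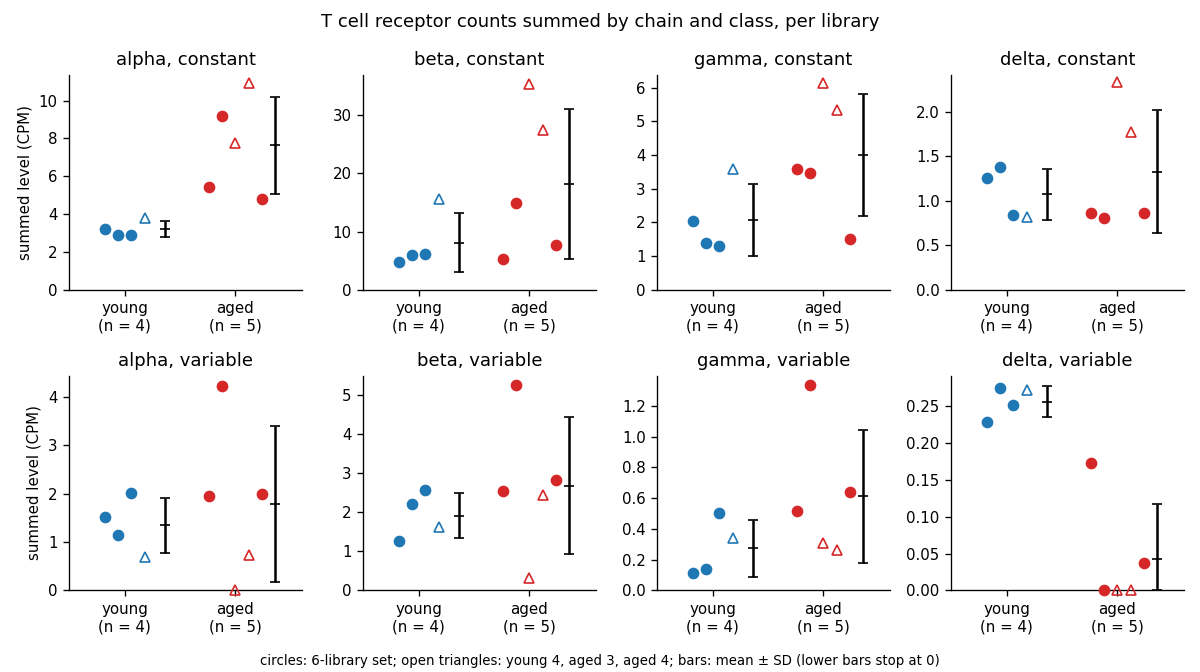
Levels in CPM, scaled by TMM, of the T cell receptor genes summed by chain, constant genes above and variable segments below, 1 point per library; bars give the mean ± SD and the open triangles are young 4, aged 3 and aged 4. On this scale alpha constant levels are higher in all 5 aged libraries than in all 4 young ones. Delta variable levels are lower in all 5, and the other 6 sums overlap.

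The alpha constant gene was higher with age in every library. Trac stood at 3.23, 2.88, 2.90 and 3.80 CPM in young 1 to young 4. It stood at 5.44, 9.21, 7.78, 11.0 and 4.78 CPM in aged 1 to aged 5, from 56 to 211 counts per library. All aged values lay above all young values, with aged 5 the lowest of the aged, and this held for 1.67% of the 16576 genes tested. The means were 3.20 ± 0.431 CPM (SD, n = 4) and 7.63 ± 2.57 CPM (SD, n = 5), a 2.38-fold difference and a log2 fold change of 1.25 (SE 0.30). The difference was not called by edgeR's quasi-likelihood test with age as the only term (adjusted p = 0.266), a fit in which 0.0% of genes were called, while 1457 genes had an unadjusted p below 0.05. With the library set as a further term Trac rose by 1.16 (SE 0.25, edgeR adjusted p = 0.0496), and DESeq2 called it too (adjusted p = 0.00509). In the 6-library set it was 2.16-fold higher, again with no overlap (edgeR adjusted p = 0.0895). Aged 5, set alone against the young libraries with which it shares Y-linked transcripts, gave a log2 fold change of 0.58. In TPM, the authors' values scaled by length, the groups did not overlap either, with 2.72 to 5.92 in young libraries against 6.51 to 15.7 in aged ones, although young 4 was the lowest young library on that scale and the highest in CPM. The share of all genes that separate in TPM was not computed. In bulk RNA, more T cells and more receptor RNA per cell cannot be told apart.

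The beta constant sum was higher in aged libraries on average, with overlap. Summed Trbc1 and Trbc2 stood at 4.75, 5.90, 6.09 and 15.7 CPM in young 1 to young 4 and at 5.31, 14.9, 35.4, 27.4 and 7.65 CPM in aged 1 to aged 5. The highest value of each age came from the 3-library set, young 4 being above aged 1, aged 2 and aged 5. The means were 8.11 ± 5.09 CPM (SD, n = 4) and 18.1 ± 12.9 CPM (SD, n = 5), and the log2 fold change of 1.16 (SE 0.59) was not called (adjusted p = 0.671 by edgeR, or 0.158 with the set term). Aged 5 against the young libraries gave -0.074, so the direction turned there. Both genes leaned the same way, Trbc1 with a log2 fold change of 0.95 (SE 0.62) and Trbc2 with 1.32 (SE 0.62), and neither was called. The Trbc2 share of beta constant counts was 52.8% to 59.3% in young libraries, inside the aged range of 48.2% to 73.6%. Per length, Trbc2 was at 8.72 ± 0.769 TPM (SD, n = 4) in young and 20.7 ± 9.12 TPM (SD, n = 5) in aged libraries. Each aged library was above each young one in the authors' values for Trbc2, while in CPM its values overlapped. How many genes separate in TPM was not computed. Trbc1 overlapped on that scale, at 5.07 to 7.87 TPM in young and 5.42 to 20.8 TPM in aged libraries, and the split of counts between these genes is uncertain.

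Among the gamma constant genes the difference lay with the counts assigned to Trgc2. Its counts were 10, 10, 10 and 18 in young 1 to young 4 and 34, 37, 93, 61 and 24 in aged 1 to aged 5. In TPM that was 0.72, 0.77, 0.72 and 0.90 against 3.34, 2.90, 4.92, 3.42 and 1.67. Every aged library was above every young library in counts and in TPM, while on the TMM scale young 4 (1.22 CPM) lay above aged 5 (0.904 CPM). How many genes separate in counts or in TPM was not computed. On the TMM scale 1.67% of genes tested did so with the aged higher, and Trgc2 was not among them. The log2 fold change was 2.07 (SE 0.65, edgeR adjusted p = 0.356) with age alone. Trgc2 rose by 1.72 (SE 0.34, edgeR adjusted p = 0.0453) with the set term, and DESeq2 called it too (adjusted p = 0.0473). Aged 5 alone against the young libraries gave 0.58. The other gamma constant genes did not share this, Trgc1 having a log2 fold change of -0.23 (SE 0.54) and Trgc4 of 0.09 (SE 0.84), and the signs of both turned in some of the alternatives. Trgc2 took 18.5%, 33.3%, 32.3% and 34.0% of gamma constant counts in young 1 to young 4 and 41.0%, 47.4%, 93.0%, 59.2% and 60.0% in aged 1 to aged 5. This share of Trgc2 does not depend on library scaling, and its young and aged values did not overlap. It does depend on how counts were assigned among Trgc1, Trgc2 and Trgc3, which was not tested. How often ratios of this kind separate was not computed. In aged 3, where the Trgc2 share was highest, Trgc4 had 0 counts against 8 to 34 in the other libraries. The whole gamma constant sum was at 2.08 ± 1.07 CPM (SD, n = 4) and 4.01 ± 1.81 CPM (SD, n = 5), with overlap. Its log2 fold change of 0.95 (SE 0.47) was not called (edgeR adjusted p = 0.655), and aged 5 alone gave -0.45.

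**Figure D2:**
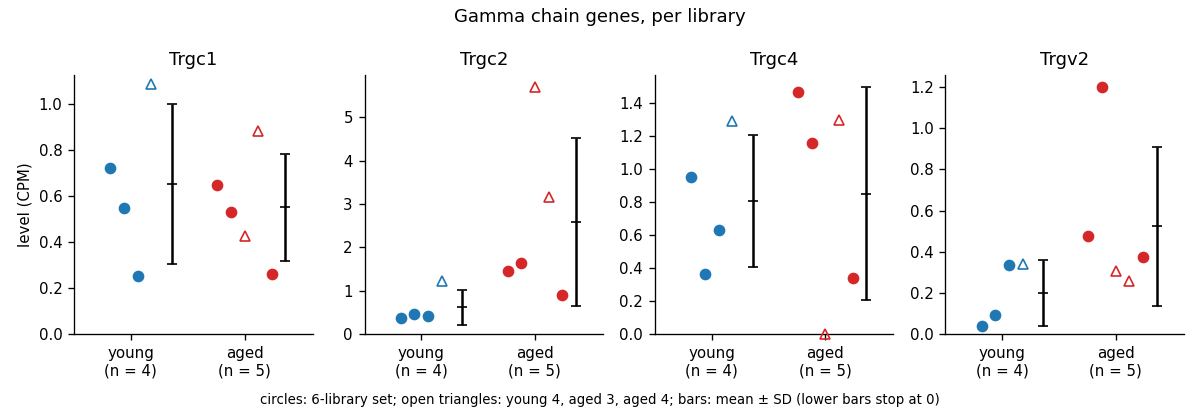
Levels in CPM of the gamma constant genes Trgc1, Trgc2 and Trgc4 and of the variable segment Trgv2, 1 point per library, with mean ± SD; open triangles are young 4, aged 3 and aged 4. Trgc2 and Trgv2 are higher in aged libraries on average, with overlap, while Trgc1 and Trgc4 have like means at both ages.

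The delta constant gene did not differ beyond its spread. Trdc stood at 1.25, 1.37, 0.840 and 0.815 CPM in young 1 to young 4 and at 0.863, 0.800, 2.33, 1.77 and 0.866 CPM in aged 1 to aged 5. The 2 high values were aged 3 and aged 4, and without the 3-library set the aged libraries were lower on average (log2 fold change -0.44, SE 0.30) rather than higher (0.29, SE 0.45, edgeR adjusted p = 1.00). Counts of Trdc per 100 of Trac were 21.6 to 47.6 in young libraries and overlapped the aged range of 8.70 to 29.9.

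Of the 7 constant genes tested, 6 had a log2 fold change above 0 and 1 below, against 53.5% of all tested genes above 0, and their median was 0.95 against 0.03 over all genes. By edgeR with age alone 0 of the 7 were called and 2 (Trac and Trgc2) had an unadjusted p below 0.05. With the set term the same 2 were called as higher, as were 0.615% of all tested genes (1.92% in either direction), and DESeq2 called 2 as higher beside 1.16% of all genes. In the authors' deposited table Trac had a log2 fold change of 1.26 with an adjusted p-value of 0.00865 and Trgc2 one of 2.09 with 0.0449. The other 6 constant genes were marked as not significant in the authors' deposited table. Leaving out 1 library at a time from the fit with the set term, Trac and Trgc2 remained called without aged 3 (9.91% of all genes called) and without aged 5 (4.36%), and neither was called in the other 7 fits. Those 7 fits called 0 to 2 genes of the whole table each. With terms for both the library set and the Y-linked transcripts, Trac kept a log2 fold change of 0.67 (SE 0.36) and Trgc2 of 1.10 (SE 0.52), with edgeR adjusted p = 1.00 for each.

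**Figure D3:**
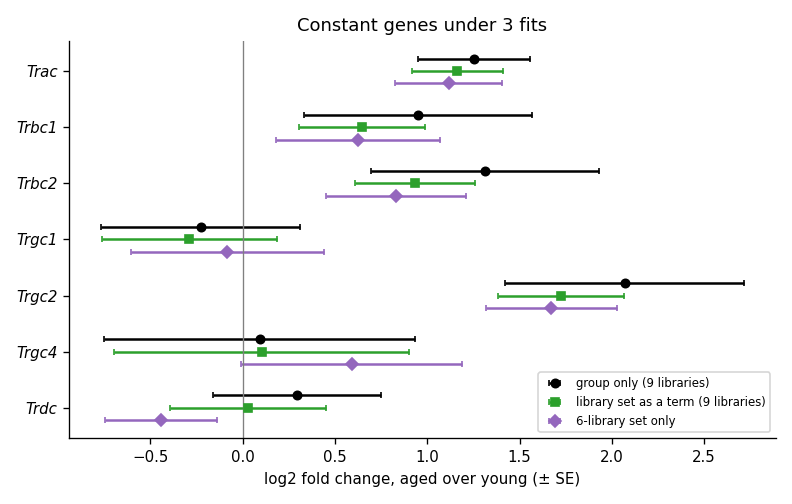
Log2 fold change (aged over young, ± SE) of the 7 tested constant genes with age as the only term, with the library set as a further term, and in the 6-library set alone. Trac and Trgc2 lie above 1 in all 3 fits, Trgc1, Trgc4 and Trdc lie near or across 0.

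Variable segments are described next, as sums and as single segments. The alpha variable sum had 40, 25, 48 and 10 counts in young 1 to young 4 and 45, 95, 0, 14 and 53 counts in aged 1 to aged 5. The beta variable sum had 33, 48, 61 and 24 counts in the young and 59, 118, 5, 47 and 75 counts in the aged libraries. In both chains aged 2 was the highest and aged 3 the lowest library. Neither sum differed beyond its spread (edgeR log2 fold change 0.41, SE 0.89, for alpha and 0.49, SE 0.61, for beta, adjusted p = 1.00 for each). Without aged 2 the alpha value turned to -0.19.

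The ratio of variable to constant counts separated the library sets rather than the ages in the alpha chain, the beta chain and the pooled counts. All variable segments together had 27.8 to 48.2 counts per 100 constant counts in the 6-library set. In young 4, aged 3 and aged 4 this ratio was 12.1, 1.19 and 7.76. The pooled ratio was therefore below every other library in all of the 3-library set, at both ages. In the gamma chain the sets overlapped, with 5.56 to 42.5 in the 6-library set and 4.85 to 9.43 in the 3-library set. The delta ratio was highest in young 4 (30.4), the young libraries spanning 18.2 to 30.4 and the aged ones 0 to 20.0. In the 6-library set the alpha ratio was 48.2, 41.3 and 71.0 in young 1 to young 3 and 35.7, 47.8 and 43.3 in aged 1, aged 2 and aged 5. The same split was seen outside the T cell receptor: immunoglobulin kappa variable segments had 65.7 to 80.8 counts per 100 counts of Igkc in the 6-library set and 8.61 to 14.3 in the 3-library set, a comparison chosen after the receptor ratios had been seen. The 3-library set had the higher ribosomal protein share and the lower pooled ratio, and the part of that share in the ratio was not tested. Inside the 6-library set the variable sum of alpha was 1.74-fold, of beta 1.77-fold and of gamma 3.30-fold higher in aged libraries and none was called (edgeR adjusted p = 0.283, 0.264 and 0.185).

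**Figure D4:**
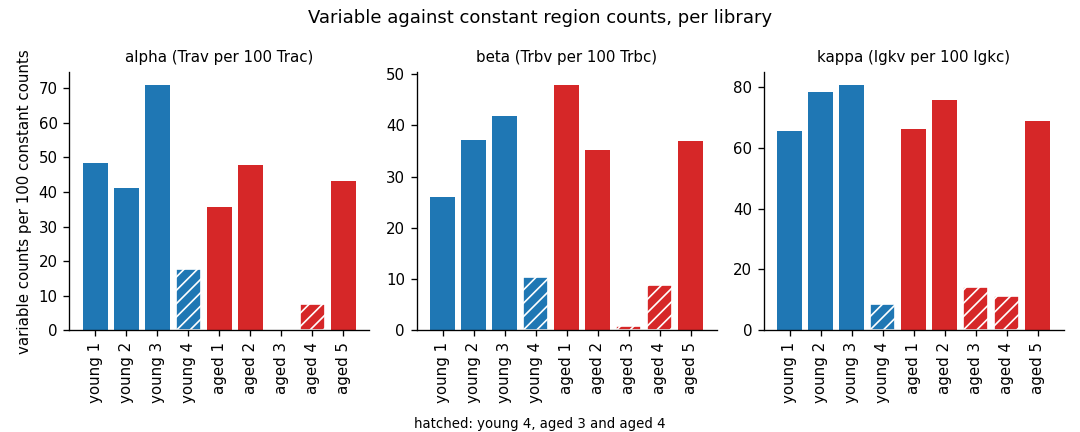
Variable counts per 100 constant counts in each library for the alpha chain, the beta chain and, for comparison, immunoglobulin kappa; blue bars are young, red bars aged, and hatched bars are young 4, aged 3 and aged 4. The hatched bars are the lowest in every panel, and aged 3 has no alpha variable count.

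Gamma variable counts came mostly from Trgv2. The sum had 3, 3, 12 and 5 counts in young 1 to young 4 and 12, 30, 5, 5 and 17 counts in aged 1 to aged 5, and its log2 fold change of 1.17 (SE 0.67) was not called (edgeR adjusted p = 0.746). Trgv2 alone had 1, 2, 8 and 5 counts in the young and 11, 27, 5, 5 and 10 in the aged libraries. Within the 6-library set each aged library had more Trgv2 than each young library, the nearest being 10 counts in aged 5 and 8 in young 3. The 3-library set had 5 counts in each of its members. Counts this low were not tested, and the share of all genes that separate in this way was not computed. In the annotation Trgv2 lies beside Trgj2 and Trgc2 on the minus strand of chromosome 13, a separate unit from the Trgv7, Trgv4, Trgv6, Trgv5 and Trgc1 unit and the Trgv1 and Trgc4 unit. Trgv2 is thus the segment of the same unit as Trgc2, the gamma constant gene that was higher in aged libraries, and the last 300 bases of its coding sequence are shown for that reason, with no capitals.
Trgv2: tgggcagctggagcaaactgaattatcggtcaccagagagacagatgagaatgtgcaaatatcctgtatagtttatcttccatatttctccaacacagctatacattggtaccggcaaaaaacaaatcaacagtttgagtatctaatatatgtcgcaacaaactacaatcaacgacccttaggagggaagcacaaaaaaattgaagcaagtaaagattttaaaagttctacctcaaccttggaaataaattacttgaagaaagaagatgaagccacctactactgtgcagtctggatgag
Trgv4 had 11 counts over 5 libraries and Trgv3 had 4, all of them in aged 2 and aged 5. Trgv1, Trgv6 and Trgv7 had 1 count each. Trgv5, the segment of the gamma delta T cells of the epidermis, had none.

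Delta variable counts were lower in aged libraries on average. There were 6, 6, 6 and 4 counts in young 1 to young 4 and 4, 0, 0, 0 and 1 in aged 1 to aged 5, that is 0.228 to 0.275 CPM and 0 to 0.173 CPM. On the TMM scale no aged library reached a young one, as was so for 2.76% of the genes tested, which this sum was not among. In rounded counts aged 1 and young 4 were level, at 4 each. A count of 0 allows up to 3 counts, or 0.133, 0.184 and 0.156 CPM in aged 2, aged 3 and aged 4. The sum of 22 young and 5 aged counts did not pass the filter on low counts and was not tested there, and without the filter it was not called (log2 fold change -2.38, SE 1.08, edgeR adjusted p = 0.723). Trdv2-2 gave 2, 1, 6 and 3 counts in young 1 to young 4 and 3 in aged 1 only, Trdv5 gave 5 counts in 3 young libraries, Trdv4 gave 5 in all and Trdv1 gave 2. A further 10 alpha segments carry a dv name, since they can join to delta as well as alpha segments, and the deposited counts do not say to which they were joined. With these counted as delta, the log2 ratio of the group means of the delta variable sum went from -2.61 to -0.57. Without aged 1, which holds 4 of the 5 aged counts, the log2 ratio was -4.77.

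Single alpha segments were spread thinly. Segments with a count numbered 22, 12, 21 and 5 in young 1 to young 4 and 20, 44, 0, 9 and 26 in aged 1 to aged 5, following the number of counts. The highest was Trav13-4-dv7, with 4, 6, 4 and 3 counts in young 1 to young 4, 6 in aged 2 and none in the other aged libraries. Trav14d-3-dv8 had 5 counts in young and 14 in aged libraries together. Trav6-7-dv9 had 6 and 8, Trav13-5 had 11 and 2, and Trav9d-4 had 5 and 4. Trav7-4 was at 0 in all young libraries and had 8 counts in aged 2 and 4 in aged 5. Each of these segments overlapped between ages, and 17 pairs of alpha segments have identical transcript sequences, so counts within such a pair cannot be assigned to 1 of them.

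Beta segments were the best covered, and their usage was broad at both ages. Between 10 and 18 beta segments had a count in each library except aged 3, whose 5 counts all fell on Trbv13-1. Reduced to 24 counts, the depth of young 4, the expected number of segments was 10 to 11.7 in young libraries and 10.2 to 13.2 in aged 1, aged 2, aged 4 and aged 5. The most used segment of a library took 14.6% to 30.3% of its beta counts in young and 11.9% to 19.1% in those 4 aged libraries. The widest Wilson 95% interval among these, for Trbv13-2 in young 1 (10 of 33 counts), ran from 17.4% to 47.3%. Intervals cover counting error only.

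The beta segment with most counts was Trbv13-2, whose coding sequence is shown from base 41 to base 340, with no capitals.
Trbv13-2: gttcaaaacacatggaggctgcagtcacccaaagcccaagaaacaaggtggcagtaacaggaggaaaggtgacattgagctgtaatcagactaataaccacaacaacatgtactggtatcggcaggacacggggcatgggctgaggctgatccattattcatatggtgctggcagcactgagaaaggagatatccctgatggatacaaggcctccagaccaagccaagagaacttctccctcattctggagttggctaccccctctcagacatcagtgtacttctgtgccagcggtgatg
It had 10, 3, 7 and 4 counts in young 1 to young 4 and 7, 6, 0, 9 and 9 in aged 1 to aged 5, which is 14.5% of the pooled young and 10.2% of the pooled aged beta counts. Trbv3 had 5, 7, 8 and 4 counts in the young and 2, 6, 0, 6 and 1 in the aged libraries, 14.5% and 4.93% of the pools. Trbv2 leaned the other way, with 3.61% and 7.89%, 15 of its 24 aged counts coming from aged 2. Trbv1 (10.2% and 8.88%), Trbv13-1 (9.64% and 8.55%) and Trbv29 (7.23% and 8.55%) had like shares. No variable segment had young and aged values without overlap, and none was deep enough for a test.

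Segments of invariant T cells were at or near the floor. Trav11 and Traj18, the parts of the invariant NKT cell receptor, were at 0 in all libraries, and Trav11d, a near relative of Trav11, had 2 counts, both in young libraries. Trav1, used with Traj33 by mucosal-associated invariant T cells, had 2 counts, and Traj33 had none. Joining segments as a class were at 0, so their zeros say nothing on these cells. Trgv6 and Trdv4, the chains of a tissue-resident gamma delta lineage, had 1 and 5 counts.

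The chains that carry the receptor to the surface were higher in aged libraries as well. The sum of Cd3e, Cd3d, Cd3g and Cd247 was 12.8, 15.1, 13.3 and 18.6 CPM in young 1 to young 4 and 21.5, 41.7, 48.6, 34.1 and 19.5 CPM in aged 1 to aged 5. These sums did not overlap, as was so with the aged higher for 1.67% of single genes tested. Aged 5 was the lowest aged library here as for Trac. Cd3g was at 3.36 ± 0.442 CPM (SD, n = 4) and 10.9 ± 4.49 CPM (SD, n = 5), and it rose with the set term (log2 fold change 1.55, SE 0.28, edgeR adjusted p = 0.0405). All 4 members had log2 fold changes above 0, at 1.69 for Cd3g, 1.51 for Cd3e, 0.74 for Cd247 and 0.56 for Cd3d. With age alone 0 were called. With the set term 1 was called as higher, as were 0.615% of all tested genes (1.92% in either direction). In the fits with the set term that left out 1 library, Cd3g was called without aged 3 and without aged 5 and in none of the other 7 (edgeR adjusted p = 0.0568 to 0.177). Those 7 fits called 0 to 2 genes of the whole table each. Aged 5 alone against the young libraries gave 0.61 for Cd3g, 0.84 for Cd3e, 0.40 for Cd247 and -0.26 for Cd3d, where the direction turned. Receptor constant counts per 100 of these CD3 and zeta counts were 76.1 to 88.0 in the young and 68.0 to 75.8 in the aged members of the 6-library set, and 106 to 134 in the 3-library set. Variable counts per 100 of the same CD3 and zeta counts were 24.1 to 40.3 in the 6-library set and 15.5, 1.26 and 10.4 in young 4, aged 3 and aged 4. Against the CD3 and zeta genes the 3-library set thus had more constant and fewer variable counts than every other library, at both ages.

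**Figure D5:**
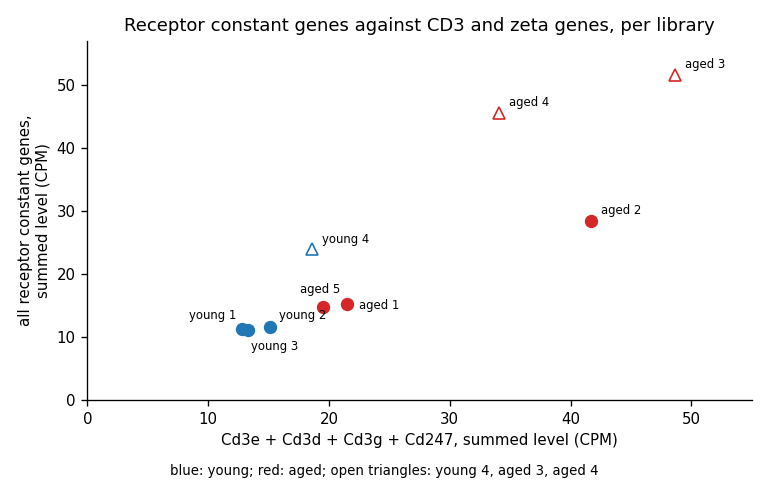
Summed level of all T cell receptor constant genes (y, CPM) against the summed level of Cd3e, Cd3d, Cd3g and Cd247 (x, CPM), 1 point per library; blue is young, red is aged, and open triangles are young 4, aged 3 and aged 4. All 5 aged libraries lie to the right of all 4 young libraries, and the triangles lie above the circles of like x.

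The coreceptors went apart. Cd8a, a chain of the CD8 coreceptor of cytotoxic T cells, was at 3.22 ± 0.905 CPM (SD, n = 4) in young and 9.34 ± 2.51 CPM (SD, n = 5) in aged libraries. Its values did not overlap, as was so with the aged higher for 1.67% of genes tested. With the set term Cd8a rose (log2 fold change 1.57, SE 0.28, edgeR adjusted p = 0.0405), beside 0.615% of all tested genes (1.92% in either direction). Cd8b1, its partner chain, was at 1.63 ± 0.515 and 4.04 ± 1.20 CPM (adjusted p = 0.320 by edgeR, or 0.0887 with the set term). Cd4, which macrophages and their precursors can express besides helper T cells, was lower in every aged library, as was so for 2.76% of genes tested. It was at 30.0 ± 6.31 CPM (SD, n = 4) in young against 17.2 ± 7.0 CPM (SD, n = 5) in aged libraries. Its log2 fold change of -0.80 (SE 0.32) was not called (edgeR adjusted p = 0.490). Aged 5 alone against the young libraries gave 1.62 for Cd8a. With the set term Cd8a was called without aged 3 or aged 5 and in none of the 7 fits that left out another library (edgeR adjusted p = 0.0568 to 0.177). Those 7 fits called 0 to 2 genes of the whole table each.

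Genes of receptor signalling leaned towards the aged libraries. Of 16 listed, 15 had a log2 fold change above 0 (median 0.59), and 0 were called with age alone or with the set term. Themis, a signalling protein of thymocyte selection, was at 0.830 ± 0.259 and 2.14 ± 0.752 CPM, and Zap70, the kinase that binds the phosphorylated CD3 and zeta chains, at 2.32 ± 0.628 and 4.85 ± 2.44 CPM, both with no overlap between ages. Aged values lay above all young ones in this way for 1.67% of all genes tested. Lcp2, an adaptor also made by myeloid cells, was at 118 ± 8.52 and 194 ± 74.8 CPM, and Sh2d1a, an adaptor of SLAM receptors, at 0.578 ± 0.252 and 1.67 ± 1.04 CPM. Of 12 further genes of the T lineage, 9 were above 0 and 3 below (median 0.61). Their summed level overlapped between ages, at 70.6 to 85.4 CPM in young and 62.5 to 114 CPM in aged libraries. Those named here had the smallest p in the list. Bcl11b, a transcription factor that commits cells to the T lineage, was at 1.80 ± 0.376 and 4.86 ± 1.73 CPM. With the set term it rose (log2 fold change 1.48, edgeR adjusted p = 0.0435), beside 0.615% of all tested genes. Leaving out any library other than aged 3 or aged 5 ended the Bcl11b call (edgeR adjusted p = 0.0596 to 0.176). Those fits called 0 to 2 genes of the whole table each. Icos, a costimulatory receptor, was at 0.875 ± 0.234 and 2.44 ± 1.15 CPM, and Gata3, a transcription factor of T cells, at 1.04 ± 0.242 and 2.21 ± 0.908 CPM, neither overlapping between ages nor called. Thy1, a surface protein of T cells, was at 10.6 ± 1.89 and 16.4 ± 3.92 CPM.

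Memory and effector genes were mostly higher in aged libraries. Of 16, 15 were above 0 (median 1.29), 0 were called with age alone and 3 rose with the set term, beside 0.615% of all tested genes. These 3 remained called with the set term without aged 3 or without aged 5, and none of them was called in the other 7 fits that left out 1 library (edgeR adjusted p = 0.0568 to 0.176 for Gzmk, 0.0643 to 0.181 for Ctla4 and 0.0568 to 0.176 for Ccl5). Those 7 fits called 0 to 2 genes of the whole table each. Gzmk, a granzyme of memory CD8 T cells, was at 0.111 ± 0.0671 CPM (SD, n = 4) in young and 4.34 ± 2.93 CPM (SD, n = 5) in aged libraries with no overlap (log2 fold change with the set term 4.81, SE 0.72, edgeR adjusted p = 0.0405). Ctla4, an inhibitory receptor, was at 0.217 ± 0.116 and 2.07 ± 1.20 CPM and rose too (2.92, SE 0.60, edgeR adjusted p = 0.0467). Ccl5, a chemokine of memory T cells and NK cells, rose by 1.49 (SE 0.26, edgeR adjusted p = 0.0405). Tox, a transcription factor of chronically stimulated T cells, was at 1.11 ± 0.266 and 3.38 ± 1.31 CPM without overlap and was not called (edgeR adjusted p = 0.0529 with the set term). Aged values lay above all young ones in 4 of the 16 genes, beside 1.67% of all genes tested. In aged 5 alone against the young libraries Gzmk gave 2.87, Ctla4 1.83, Tox 0.78 and Ccl5 0.52.

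Genes of receptor assembly were not higher. Rag1 and Rag2, the recombinase genes, and Dntt, which adds untemplated bases at the joints, are used by B cell precursors in marrow as well as by thymocytes. Rag1 was at 45.7 ± 15.1 and 11.0 ± 10.7 CPM, Dntt at 20.8 ± 5.81 and 11.7 ± 7.46 CPM and Rag2 at 5.49 ± 1.22 and 2.72 ± 3.92 CPM. All 3 had log2 fold changes below 0 and 0 were called. Ptcra, the pre-T alpha chain of thymocytes, had 0 to 3 counts per library. Among 6 tested genes of gamma delta T cells, 3 were above 0 and 0 were called. Tmem176b (76.5 ± 35.9 and 161 ± 48.4 CPM) and Tmem176a (52.7 ± 29.1 and 96.6 ± 22.4 CPM), ion channel genes also made by myeloid cells, were among the 3. Blk, a kinase of B cells and of some gamma delta T cells, was at 17.0 ± 0.500 and 8.62 ± 6.66 CPM, and Il17a was at 0 in all libraries.

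Markers of other cells in the marrow moved between the ages too, and their part in the receptor values was not tested. All 9 markers of NK cells, which share several effector genes with T cells, were above 0 (median log2 fold change 0.26), with a summed level of 20.3 to 37.6 CPM in young libraries, overlapping the aged range of 24.7 to 50.2 CPM, and 0 were called. Among them Eomes was at 2.34 ± 1.27 and 5.92 ± 2.20 CPM, Klra8 at 0.963 ± 0.631 and 1.93 ± 1.43, Klra4 at 0.654 ± 0.432 and 1.08 ± 0.953 and Ncr1 at 1.89 ± 0.973 and 2.53 ± 0.391 CPM. B cell markers had 0 of 6 above 0 (325 to 361 CPM summed in young, 70.0 to 485 in aged) and plasma cell markers 7 of 7 (368 to 700 and 457 to 1589 CPM). Neutrophil and monocyte markers had 8 of 9 above 0, at 17104 to 41238 and 13301 to 59257 CPM. Erythroid markers had 0 of 7 above 0, at 6140 to 7235 and 1169 to 4371 CPM with no overlap, and bone cell markers 0 of 7, at 1677 to 4267 and 309 to 1822 CPM. No listed marker of these 6 cell types was at 0 in all libraries.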

How the data were processed

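RNA sequencing of 4 young and 5 aged mouse bone marrow samples was used, from 1 deposited table. Its 9 count columns hold estimated counts per gene, made by the authors with no scaling to a common total. They were rounded to whole numbers for testing. Its TPM columns were scaled by the authors to gene length and library. The log2 fold change, the fold ratio and the p-value of each gene, with its adjusted form, come from a comparison that the authors deposited, and were only quoted. The build mm8 and Bowtie 0.12.2 stand in the submitters' processing notes with no role. The quantifier and the annotation are not given in the sources used here, so no coordinates were used. All 186 members were found in GENCODE M21 by gene ID, and the deposited length of each equals a transcript length there. Sequences and pseudogene status came from GENCODE M21.

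Counts were summed by chain and class and fitted with the rest of the table in edgeR 4.0.16 (R 4.3.3; TMM scaling, filterByExpr with a minimum count of 10, glmQLFit and glmQLFTest, Benjamini-Hochberg adjustment over the whole table, threshold 0.05). Age was the only term. CPM values were scaled by TMM, and ratios of counts within a library were left unscaled. The depth of 19804883 to 23548594 counts per library leaves single variable segments at the level of counting error, and the delta variable sum did not pass the filter. Tested on simulated data of this comparison (16158 genes), the age-only fit found 5 of the 100 genes given a 2-fold change, 53 of the 100 given a 4-fold change and 5 that had none. With the library set (16247 genes) it found 40, 82 and 5. The simulated means differed between libraries only by library total and by the age change given. They held no difference between the library sets or with Y-linked transcripts, so these numbers need not hold for the real libraries. No library was counted as a copy of another, the least chi-square per gene being 16.7 (young 1 against young 3).

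Members, partner lists, the library sets and the tests were chosen with earlier results of these data known. Named genes are the constant genes, the variable segments with the highest mean CPM (6 alpha, 6 beta, 3 gamma, 3 delta), called members, tested members without overlap, the invariant segments, and up to 4 genes with the smallest p in each T or NK cell list. Single genes of the lists for other cells, the other gamma and delta segments and Igkc fall outside or were left to the list level, and Trgv1, Trgv7 and Ptcra were named after their values were seen. Alternatives were DESeq2 1.42.0, other scaling and filters, each library left out, the replicate number as a block, the library set as a term or alone, Y-linked libraries only, and other handling of pseudogenes, dual segments and rounding. Fits combining the set term with left-out libraries or with a Y-linked term were added after seeing the data. 1 gene of a partner list and some sequences are not reported here.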

Additional observations from a re-analysis of the deposited data

Results flagged for a closer look

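In groups of 4 or 5 libraries, 1 library stood apart from the rest of its age group by Dixon's 95% limit in 20 of 102 groups of values. Chance gives about 1 in 20 for independent groups of normally distributed values. These groups share libraries and counts, and CPM and ratios were used without a log, so no excess over chance can be read from this number. For the 7 chain and class sums tested, no difference between the library sets in the effect of age passed the threshold (edgeR interaction term, smallest unadjusted p = 0.0329, for delta constant, adjusted p = 0.926). In that fit the 3-library set holds 1 young library, and 2 of all 16576 features tested passed.

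Young 4 was far above the other young libraries in the beta constant sum (15.7 CPM, next 6.09), Trbc1 (7.13 CPM), Trbc2 (8.56 CPM), Trgc2 (1.22 CPM), Cd3d (9.30 CPM), Tmem176b (130.0 CPM), Tmem176a (96.1 CPM) and Klra8 (1.90 CPM), and far below them in Rag1 (23.3 CPM, next 50.9). Young 1 was the highest young library for Themis (1.22 CPM) and for gamma per 100 beta constant counts (43.2), and the lowest for the Trgc2 share of gamma constant counts (18.5%). Young 3 was the highest young library for gamma variable per 100 constant counts (38.7).

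Among aged libraries, aged 2 stood apart as highest for Zap70 (9.21 CPM), Bcl11b (7.87 CPM) and Icos (4.45 CPM). Aged 1 was highest for the delta variable sum (0.173 CPM) and for gamma per 100 beta constant counts (67.5), aged 3 for Rag2 (9.62 CPM) and aged 4 for Klra4 (2.75 CPM).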

How the results depend on the processing

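Of 284 alternative values of the sums and counts of calls, 249 kept their direction and their side of the threshold or stayed within the allowed range. The alpha constant sum passed the threshold with DESeq2 (1.26), with the set term (1.16) and with the set term without aged 3 (1.21) or aged 5 (1.30); over left-out libraries it ranged from 1.09 to 1.39 with age alone and from 0.95 to 1.30 with the set term, with adjusted p from 0.00509 to 1.00 over all alternatives. With libraries carrying Y-linked transcripts only, it was 0.58, beta constant -0.074, gamma constant -0.45, delta constant -0.31, Trbc1 -0.048, Trbc2 -0.087, Trgc4 -1.22, Cd3d -0.26 and Klra4 -0.27. With the set and Y-linked terms, gamma constant was -0.14, delta constant -0.21, Trgc4 -1.25 and Ncr1 -0.000617. In the 3-library set alone, alpha variable was -0.85, beta variable -0.21, delta constant 1.38 and Trgc4 -0.95, and in the 6-library set alone delta constant was -0.44. Over left-out libraries, alpha variable ranged from -0.19 to 0.72 with age alone and from -0.0054 to 0.80 with the set term, and delta constant from -0.0062 to 0.43 with age alone. With the set term delta constant was -0.037 without young 3, -0.45 without young 4 and -0.082 without aged 3. Trgc1 ranged from -0.50 to 0.11 and Trgc4 from -0.19 to 0.40 over left-out libraries, and with the set term Trgc4 was -0.14, -0.0020, -0.23, -0.044 and -0.20 without young 2, young 3, aged 1, aged 2 and aged 4. Calls over the whole table went from 0 to 360 with DESeq2, 319 with the set term, 2 in the 6-library set, 13 with the replicate block, 5 with the set and Y-linked terms, 0 to 6 over left-out libraries and with the set term to 1633 when aged 3 was left out, 712 for aged 5, 2 for young 4 and 1 for aged 2. Called receptor genes went from 0 to 2 with DESeq2 and the set term, and 2 with the set term without aged 3 or aged 5. The causes were not tested. With the replicate number as a block, alpha variable was -0.17, Trgc1 0.032 and Trgc4 -0.0060, and no receptor gene was called; same-numbered libraries deviated together with r = 0.46, 0.55, -0.39 and 0.74, so the numbers do not pair the samples, and not every library correlated best with its own number. Gamma variable did not pass the filter when aged 1, aged 2 or aged 5 was left out, nor did it or delta variable with at least 1 CPM in 4 libraries, so neither has a value under those settings. The log2 ratio of the group means of delta variable, which had no test, ranged from -4.77 to -2.28 over left-out libraries. The other scalings moved the median of all genes by at most 0.04 (log2). Depth limits the variable segments to descriptions.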
